A study of Sus scrofa with 75 samples.

Results

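The miRNAs described here are the mature pig miRNAs with a number of 4331 or more in their name. The rule used the name alone, and 123 of the 457 mature miRNAs of the count table met it. The other 334 miRNAs, which have a lower number or none, are called lower-numbered. Small RNA was sequenced from peripheral blood mononuclear cells (PBMCs), the fraction of lymphocytes and monocytes that a Histopaque density gradient separates from blood. The animals were synthetic large white pigs. The 8 control pigs were raised in farrowing crates. In the topsoil group, 5 pigs received topsoil daily while they were suckling, beginning on day 4 and ending on day 20. Each of the 13 pigs was bled at day 11, at day 20 (weaning) and at day 56, which gave 39 libraries. After weaning, both groups were kept in a nursery without soil, so the topsoil pigs had no soil when they were bled at day 56. Treatment and age were taken from the column names. The separate sample characteristics gave the same treatment and age as the column name in 6 of the 39 libraries, and they were not used.

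A miRNA is cut from a hairpin transcript. Drosha releases the hairpin in the nucleus, Dicer removes its loop, and one of the 2 arms, named 5p or 3p, is usually kept by an Argonaute protein while the other is degraded. The kept strand finds its target mRNAs mainly with its seed, which is bases 2 to 8. Numbers are given in the order in which miRNAs are registered, so low numbers hold most of the families shared among vertebrates, and high numbers hold many miRNAs that were found by deep sequencing of a single species. The sequences used here were those of the pig alone, and whether a member exists in another species was not examined. In whole blood, miR-486, miR-451 and miR-144 are abundant in red blood cells, miR-150 is a miRNA of mature lymphocytes, and miR-223 is a miRNA of myeloid cells.

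The mature sequences below are those of the placed members that the results turn on, which are the most abundant ones and those named for a test, and of the 2 lower-numbered miRNAs that share the sequence of one of them. RefSeq gave both sequences and positions, on Sscrofa11.1, which is also the build to which the authors mapped their reads. They are written 5′ to 3′ with the seed in capitals.
miR-7142-3p: uUUGUUGGcuccucugaaguga
miR-7139-5p: cCAUUCCUucgucugugcacuag
miR-7139-3p: uAGGGCACaggaugggaugagg
miR-7134-3p: aUGCGGAAccugcggauacgg
miR-7134-5p: aUGUCCGCggguucccuaucc
miR-9841-3p: uCUAGCAUcgagcacccgccu
miR-9858-5p: uUCCUGAGucggacugggcu
miR-9820-5p: gAGGAGGAgggaagaaaggcu
miR-7144-5p: aCUUUCCCgggauuuggagcgc
miR-4334-3p: uCCCUGUCcuccaggagcuc
miR-339: uCCCUGUCcuccaggagcuca
miR-339-5p: uCCCUGUCcuccaggagcucac

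Most of these miRNAs lie inside introns of protein-coding genes, on the strand of the gene. miR-7142-3p is at chr2:8204941-8204962 on the minus strand, in an intron of MARK2, a kinase that acts on microtubule-associated proteins. Both arms of miR-7139 are in an intron of E2F7, a repressor of cell cycle genes, with the 5p arm at chr5:104132132-104132154 and the 3p arm at chr5:104132170-104132191 on the plus strand. Both arms of miR-7134 are on the minus strand in an intron of TNRC6B, which encodes a partner of the Argonaute proteins, with the 3p arm at chr5:8161126-8161146 and the 5p arm at chr5:8161167-8161187. miR-9841-3p, at chr7:3835436-3835456 on the minus strand, is in an intron of F13A1, the gene of the A subunit of coagulation factor XIII. miR-9820-5p, at chr2:140941642-140941662 on the minus strand, is in an intron of SIL1, and all of its bases are marked as repeat. miR-9858-5p is at chr4:51211593-51211612 on the plus strand, outside annotated genes, and the nearest gene, LOC100154873, is 157 bases away. miR-7144-5p, at chr11:74266991-74267012 on the plus strand, overlaps coding sequence of ARGLU1 on the opposite strand. miR-4334-3p, at chr15:121399652-121399671 on the plus strand, is opposite to an intron of DNPEP. miR-6529, miR-4331-5p, miR-10382, miR-10384, miR-10386 and miR-10388 were not placed.

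The hairpins of miR-7134 and miR-7139 are shown because both of their arms passed the filter used below and their arms are compared further on. The mature arms are in capitals, the 5p arm first.
miR-7134 hairpin: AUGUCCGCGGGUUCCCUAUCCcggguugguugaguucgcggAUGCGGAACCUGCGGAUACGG
miR-7139 hairpin: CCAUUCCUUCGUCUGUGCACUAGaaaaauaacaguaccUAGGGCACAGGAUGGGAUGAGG

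The deposited values are raw read counts. With one entry per mature name, libraries held between 1634831 and 13494765 reads in total. miR-486 alone took most of them in many libraries, and the reads of all other miRNAs were between 389906 and 6343113 per library, which sets the precision of every member. The erythroid list (miR-486, miR-451 and miR-144, 3 of 3 read) held between 11.8% and 95.5% of the reads, a wide range for libraries labelled as PBMCs, since these 3 are miRNAs of red blood cells. The lymphocyte list (miR-150 and miR-342, 2 of 2 read) held between 0.0482% and 2.06%, and the leukocyte and myeloid list (miR-142-3p, miR-142-5p and miR-223, 3 of 3 read) between 0.00830% and 2.75%. The platelet and vascular list (5 of 5 read) held at most 0.0179% and the epithelium and endocrine list (3 of 3 read) at most 0.0705%, and the liver and muscle lists had a median of 0 in each group. In bulk RNA of this kind, fewer cells of a type and less RNA per cell cannot be told apart.

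The share of high-numbered miRNAs that were detected was much smaller than that of lower-numbered miRNAs. At least 1 read in any library was found for 41 of the 123 members (33.3%), against 276 of the 334 lower-numbered miRNAs (82.6%). The other 82 members had no read among the 380737465 reads of the 39 libraries, which by counting error alone allows a level of up to 0.00788 CPM (counts in 1000000 reads) for each. A further 6 members had 1 to 3 reads in all libraries together. In every library, reads were found for 10 members and for 99 lower-numbered miRNAs. The filter of the study asks for reads in 17 or more libraries and for a mean above 2 reads. It was met by 22 members (17.9%) and by 187 lower-numbered miRNAs (56.0%). These are descriptions of the miRNAs listed, with no test, since miRNAs are not replicates.

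Detection differed among ranges of numbers. Of the 22 members numbered 7134 to 7144, 14 had a read and 8 passed the filter, and they held 73.8% of the reads of all members. Of the 79 members numbered 9784 to 9862, by contrast, 10 had a read and 6 passed the filter. In the range 4331 to 4339, 6 of 9 members were read and 3 passed. In the range 10382 to 10391, 7 of 9 were read and 4 passed, but these held 0.264% of the member reads. The 3 members from 6516 to 6782 were all read, and miR-6529 alone gave nearly all of their 12.4% of the member reads. miR-7857-3p was read and did not pass the filter.

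**Figure D1:**
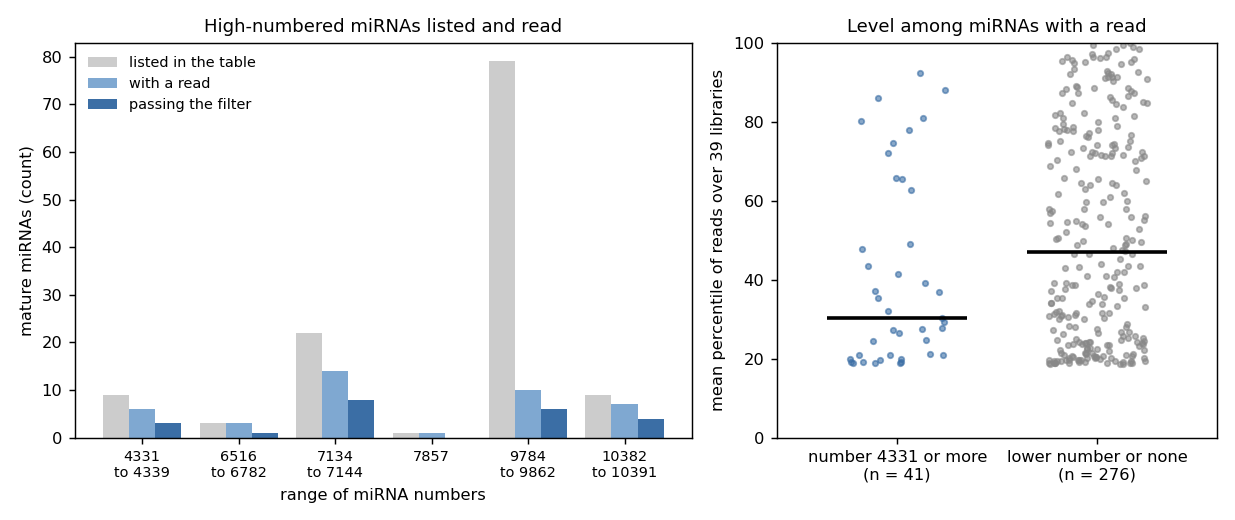
The left panel shows, for each range of miRNA numbers, how many mature miRNAs are listed, have a read and pass the filter, and the right panel shows the mean percentile of reads over 39 libraries of each miRNA with a read (one point per miRNA, line at the median). Few of the 79 members numbered 9784 to 9862 were read, and the median of the 41 members (30.4) lies below that of the 276 lower-numbered miRNAs (46.9).

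Members that were read also had lower levels than lower-numbered miRNAs. Each library's counts were ranked among the 317 miRNAs read in the series and expressed as percentiles, which do not depend on scaling. The median of the mean percentiles was 30.4 for the 41 members and 46.9 for the 276 lower-numbered miRNAs. The median of the mean reads per library was 3.13 for these members and 21.9 for the lower-numbered miRNAs. A mean above 1000 reads was reached by 5 members and 53 lower-numbered miRNAs, and a mean above 100 reads by 11 members and 106 lower-numbered miRNAs.

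Together the members held between 0.0416% and 0.572% of the reads of a library, with a median of 0.183%. Because miR-486 moves this share, it was also computed over the reads other than miR-486, where it was between 0.466% and 1.52% with a median of 0.846%. By group, this second share in control pigs was 1.17% ± 0.220, 0.973% ± 0.174 and 0.734% ± 0.169 (SD, n = 8) at days 11, 20 and 56. The topsoil pigs had 0.860% ± 0.170 (SD, n = 5), 0.841% ± 0.147 and 0.609% ± 0.104 at the same ages. The mean of this share was lowest at day 56 in both groups, and topsoil pigs had the lower mean at each age, with overlapping ranges. The mean share of all reads was instead highest at day 56 in both groups, where the erythroid share given below was lowest. Its means were 0.127%, 0.202% and 0.374% in control pigs at days 11, 20 and 56. In topsoil pigs the means of the members' share of all reads were 0.111%, 0.1004% and 0.397%. No test was run on either share, since each is a score over the members. The number of members with a read per library was between 10 and 33. Its median was 16.5, 24.5 and 22.5 in control pigs and 18, 16 and 29 in topsoil pigs at days 11, 20 and 56. When each library was thinned to 389906 reads other than miR-486, these medians became 15.9, 20.3 and 18.6 in control pigs and 16.4, 15.5 and 19.9 in topsoil pigs, so the thinned medians lay closer together than the numbers as read.

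A few members gave most of the member reads. miR-7142-3p had 349613 reads, the 24th highest total of all miRNAs, and held 48.9% of the member reads. miR-7139-5p followed with 120672 reads, miR-6529 with 88779, miR-4334-3p with 44659 and miR-7134-3p with 39846. miR-7142-3p alone held between 28.0% and 69.6% of the member reads of a library. It was the member with the most reads in every library except that of control replicate 8 at day 11, where miR-7139-5p had more, and the 3 members with the most reads in the series held between 61.7% and 86.0%. Below these, totals were 23846 for miR-9841-3p, 15365 for miR-9858-5p, 11480 for miR-7134-5p, 5796 for miR-4331-5p and 4589 for miR-7139-3p. These were the 10 members with the highest mean level. The other 12 that passed the filter had between 116 reads (miR-10386) and 4038 reads (miR-9860-5p) in all libraries together, and among them were miR-9810-3p, miR-10384, miR-7135-3p, miR-9843-3p, miR-10382, miR-7137-5p and miR-4331-3p.

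Scaled counts are given below as CPM after upper-quartile scaling, in which the 75% quantile of the tested miRNAs sets the size of a library. miR-7142-3p was between 345 and 1560 CPM over the 39 libraries, with a median of 792. Its group medians were 729, 839 and 928 in control pigs and 699, 639 and 734 in topsoil pigs at days 11, 20 and 56, and the ranges of the 6 groups overlapped. miR-6529 was between 53.5 and 333, with a median of 199. With this scaling, the log2 difference between day 56 and day 11 was 0.05 (SE 0.195) for miR-7142-3p and −0.02 (SE 0.233) for miR-6529, with adjusted p = 0.873 and adjusted p = 0.948 in edgeR's quasi-likelihood test. miR-9841-3p varied more, between 13.4 and 239, and within one group, the control pigs at day 20, it was between 13.4 and 219.6.

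miR-4334-3p is uncertain as a member. Its counts were identical to those of miR-339 and of miR-339-5p in all 39 libraries, and its 20 bases are the first 20 of both, as the sequences above show. The 5p arm of its own hairpin had 0 reads. Reads of these 3 miRNAs cannot be told apart here, so the values of miR-4334-3p may belong to miR-339. It also has 3 entries in the table, with 44659, 30290 and 28820 reads, the only member with reads that has more than one.

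Between day 11 and day 56, the levels of 4 members changed over all pigs, relative to the other miRNAs. miR-9858-5p, miR-7139-5p and miR-7139-3p were lower and miR-7134-3p was higher at day 56. Against day 20, the first 2 were again lower and miR-7134-3p again higher at day 56, and miR-9820-5p was lower. Changes with age were tested with edgeR's quasi-likelihood test in all 39 libraries with pig as a block, and p-values were adjusted with the Benjamini-Hochberg method over the 209 miRNAs tested at a false discovery rate of 0.10. From day 11 to day 56, 4 of the 22 members were called, beside a background of 25.4% of all miRNAs tested. Of these, 1 member was higher (background 17.2%) and 3 were lower (background 8.13%). From day 20 to day 56, 4 of 22 members were called (background 16.3%), 1 of them higher (background 10.0%) and 3 lower (background 6.22%). With total counts as library sizes, 11 members were called from day 11 and 8 from day 20, all of them higher at day 56, as were 161 of 162 and 107 of 108 of all called miRNAs. With upper-quartile scaling, 18.2% of the members were called in each comparison, near the backgrounds of 25.4% and 16.3%. The split into higher and lower calls rests on 1 and 3 members and was not tested. No member of 22 was called between day 11 and day 20, where 0% of all miRNAs were called, 0 members and 12 of the 209 miRNAs had an unadjusted p under 0.05, and DESeq2 called 0 members. The median log2 difference from day 11 to day 56 was 0.09 for the members and 0.46 for all miRNAs tested.

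**Figure D2:**
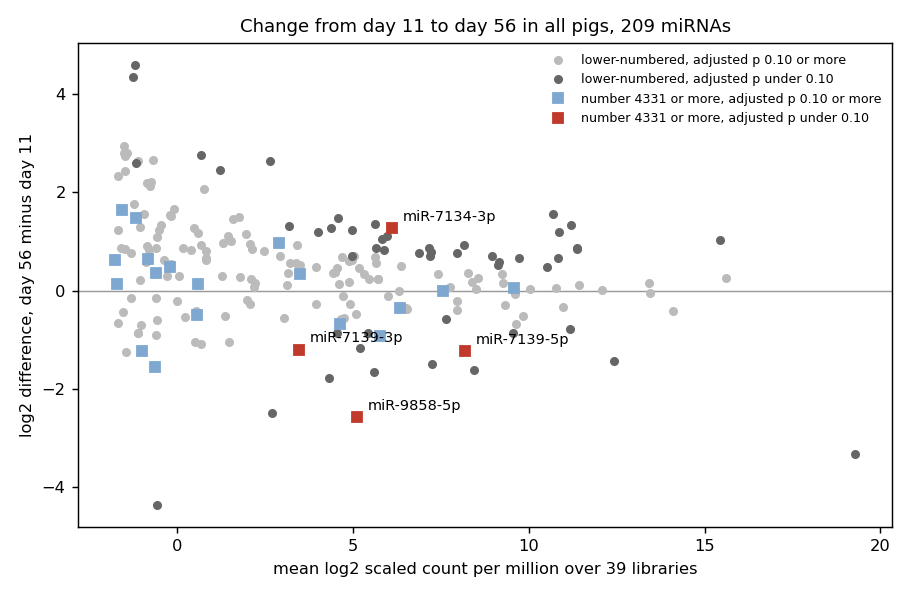
Each point is one of 209 miRNAs, with the mean log2 scaled CPM on the horizontal axis and the log2 difference between day 56 and day 11 in all pigs on the vertical axis. The members called at an adjusted p under 0.10 are named. miR-9858-5p lies at −2.58, miR-7139-5p at −1.23 and miR-7139-3p at −1.20 below 0, and miR-7134-3p lies above at 1.27. With scaling by total counts the differences of both miR-7139 arms turn positive.

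miR-9858-5p showed the smallest p-value of all 209 miRNAs in both comparisons. In control pigs it was between 14.0 and 134 CPM at day 11 with a median of 74.5, between 24.5 and 98.0 at day 20 with a median of 62.0, and between 4.33 and 23.5 at day 56 with a median of 10.8. In topsoil pigs 1 to 5 it was 136, 33.3, 60.2, 126 and 36.8 at day 11, then 105, 41.7, 54.4, 132 and 56.5 at day 20, and finally 12.4, 22.4, 10.3, 10.4 and 4.30 at day 56. All day 56 libraries were below all day 20 libraries, and at day 11 only control replicate 4, at 14.0, fell within the range of day 56. The level at day 56 was 5.97-fold lower than at day 11 (log2 difference −2.58, SE 0.355, adjusted p = 6.49e-06) and 5.45-fold lower than at day 20 (log2 difference −2.45, SE 0.366, adjusted p = 3.32e-05). It was lower in 13 of 13 pigs in each comparison. With scaling by total counts, both calls were lost. The log2 difference was then −0.49 from day 11 (adjusted p = 0.402, with 2.39e-15 to 0.402 over all alternatives) and −0.65 from day 20 (adjusted p = 0.328, with 4.70e-11 to 0.328 over all alternatives).

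miR-7134-3p, from the intron of TNRC6B, was the called member that was higher at the last age. Its level in control pigs was between 38.5 and 68.2 at day 11 with a median of 53.8, between 45.2 and 103 at day 20 with a median of 65.4, and between 66.5 and 280 at day 56 with a median of 102. In topsoil pigs 1 to 5 it was 61.0, 29.0, 65.8, 75.5 and 43.7 at day 11, then 60.2, 42.3, 53.9, 31.3 and 22.1 at day 20, and 113, 135, 163, 145 and 140 at day 56. The 5 topsoil libraries of day 56 were above all libraries of the earlier ages, while control pigs overlapped between ages. The level at day 56 was 2.41-fold that of day 11 (log2 difference 1.27, SE 0.225, adjusted p = 0.000115), and it was higher in 13 of 13 pigs. Relative to day 20 it was 2.51-fold higher (log2 difference 1.33, SE 0.237, adjusted p = 0.000189), in 11 of 13 pigs. With scaling by total counts these log2 differences were 3.21 and 2.84, and both were called.

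miR-7139-5p, the second most abundant member, was lower at day 56 under every scaling except total counts. In control pigs it was between 139 and 969 at day 11 with a median of 519, between 200 and 761 at day 20 with a median of 454, and between 139 and 300 at day 56 with a median of 166. In topsoil pigs 1 to 5 it was 334, 195, 349, 632 and 242 at day 11, then 514, 364, 336, 321 and 216 at day 20, and 127, 207, 163, 146 and 107 at day 56. The ranges overlapped between ages in both groups except between day 20 and day 56 in topsoil pigs. It was 2.35-fold lower than at day 11 (log2 difference −1.23, SE 0.257, adjusted p = 0.000547), in 11 of 13 pigs, and 2.27-fold lower than at day 20 (log2 difference −1.18, SE 0.268, adjusted p = 0.00174), in 12 of 13 pigs, but with scaling by total counts the differences turned to 0.73 and 0.44. The other arm of the hairpin, miR-7139-3p, moved the same way at a much lower level. Its medians in control pigs were 17.8, 12.1 and 8.86 at days 11, 20 and 56. Topsoil pigs 1 to 5 had 14.6, 26.8, 16.9, 15.1 and 8.04 at day 11 and 3.73, 7.57, 8.08, 4.15 and 3.51 at day 56, so these ages overlapped slightly. At day 56 it was 2.30-fold lower than at day 11 (log2 difference −1.20, SE 0.431, adjusted p = 0.0375), in 11 of 13 pigs, while total counts gave 0.81. This call was lost without topsoil replicate 2 (adjusted p = 0.144, with 0.00129 to 0.210 over all alternatives), and against day 20 the difference of −0.94 was not called (adjusted p = 0.241).

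miR-9820-5p was called between day 20 and day 56 on few reads. It had at least 1 read in 25 of 39 libraries, and its highest count was 65. In control pigs 1 to 8 the counts were 56, 10, 65, 0, 35, 15, 35 and 22 at day 20, and 0, 8, 56, 21, 14, 0, 0 and 6 at day 56. In topsoil pigs 1 to 5 they were 0, 12, 0, 0 and 25 at day 20, and 1, 1, 16, 10 and 7 at day 56. The groups overlapped, and the scaled count was lower at day 56 in 9 pigs, of which 7 were controls, and higher in 4. The fitted log2 difference was −3.42 (SE 1.25, adjusted p = 0.0688). It was no longer called when any one of control replicates 1 and 7 and topsoil replicates 2, 3 and 5 was left out. The adjusted p was then between 0.104 and 0.316. Without the library of the smallest total count, control replicate 7 at day 56, the call was lost with adjusted p = 0.122. The call was also lost with total counts (adjusted p = 0.218), without the filter on low counts (adjusted p = 0.114) and without the RNA quality index as a covariate (adjusted p = 0.209), and over all alternatives the adjusted p was between 0.0108 and 0.316.

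**Figure D3:**
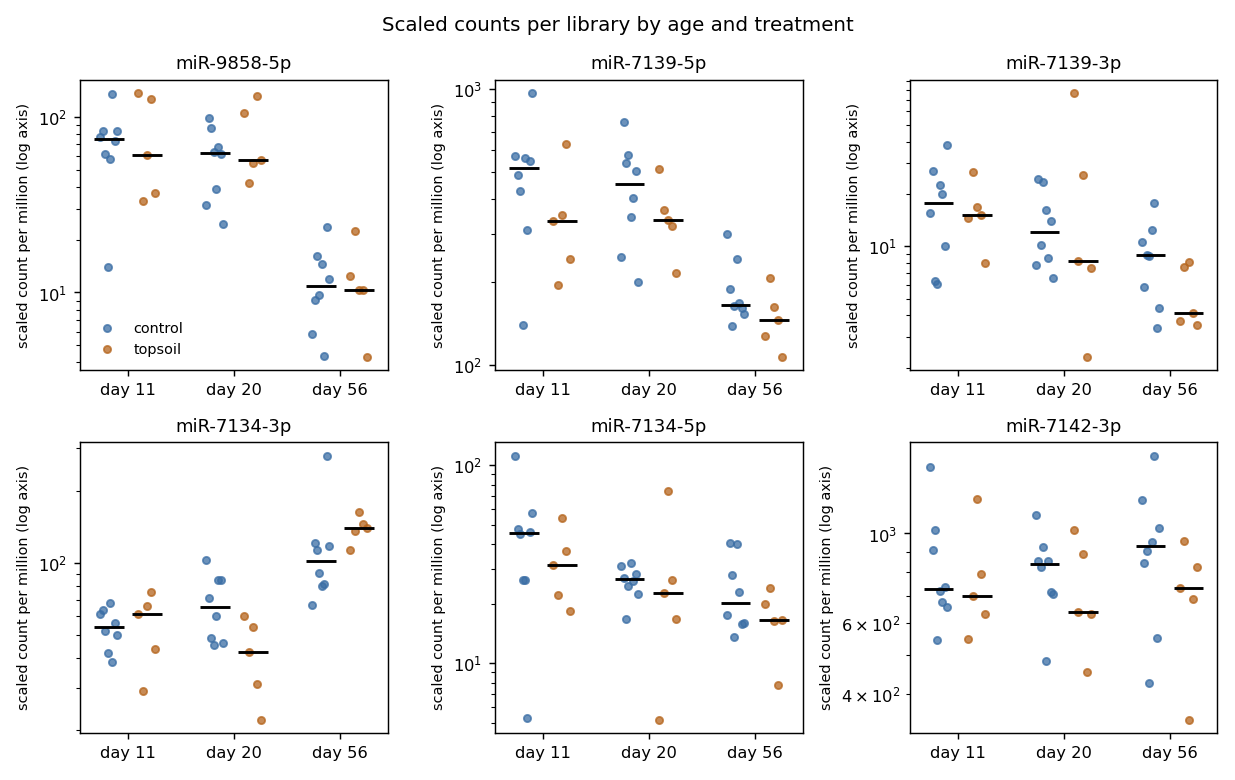
Each panel shows a member's scaled CPM (log axis) in the 39 libraries at days 11, 20 and 56, with control and topsoil pigs in separate colours and a line at the group median. miR-9858-5p is lower at day 56 than at day 20 in all 13 pigs, and miR-7134-3p is higher at day 56 than at day 11 in all 13. With scaling by total counts, the differences of both miR-7139 arms would turn positive.

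Markers of other cells moved with age beside these changes. The erythroid list held a median of 91.4%, 77.9% and 42.4% of the reads in control pigs at days 11, 20 and 56 (ranges 69.2% to 95.5%, 65.5% to 95.1% and 18.5% to 75.3%). In topsoil pigs the medians were 88.9%, 89.2% and 38.0% (ranges 76.2% to 95.3%, 74.1% to 95.5% and 11.8% to 48.3%). The lymphocyte list had medians of 0.144%, 0.150% and 0.900% in control pigs and of 0.160%, 0.130% and 1.49% in topsoil pigs. The leukocyte and myeloid list had medians of 0.0493%, 0.181% and 0.506% in control pigs and of 0.0520%, 0.0661% and 0.884% in topsoil pigs. The median of the erythroid list was thus lowest, and the medians of the lymphocyte and myeloid lists highest, at day 56 in both groups. All of these are shares of all reads, so a lower erythroid share by itself raises the shares of the other lists. Shares over the remaining reads were not computed for the lists. The platelet and vascular list had medians of 0.00625%, 0.00427% and 0.00841% in control pigs and of 0.00522%, 0.00548% and 0.00965% in topsoil pigs. For the epithelium and endocrine list, the medians were 0.00975%, 0.0238% and 0.0177% in control pigs and 0.0138%, 0.0153% and 0.0226% in topsoil pigs. The part of the cell makeup in the changes of the members with age was not tested.

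Since miR-486 takes so large and so variable a share, the scaling sets the size of each change with age. The median log2 difference of all 209 miRNAs from day 11 to day 56 was 0.46 with upper-quartile scaling, 0.29 with TMM, 0.21 with DESeq2, 0.14 with the reads other than miR-486 as library size and 2.38 with total counts. Relative to that median, miR-9858-5p was at −3.04 with upper-quartile scaling and at −2.87 with total counts. On the same relative scale, miR-7139-5p was at −1.70 and −1.66, miR-7139-3p at −1.67 and −1.57, and miR-7134-3p at 0.80 and 0.83. A change of scaling moves all miRNAs of a library by the same factor, so these relative values are close by construction and say nothing about which scaling is right. On the unadjusted scale, both miR-7139 arms changed sign and miR-9858-5p was not called with total counts. Of all called miRNAs, 36 of 53 were higher at day 56 than at day 11 with upper-quartile scaling, 39 of 68 with DESeq2, 16 of 41 with the reads other than miR-486, and 161 of 162 with total counts.

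**Figure D4:**
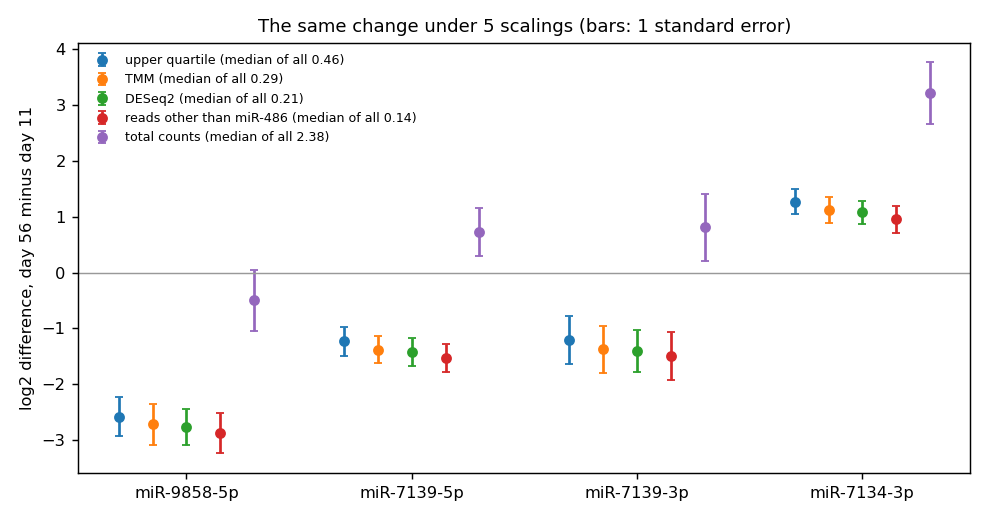
The log2 difference between day 56 and day 11 of 4 members is shown under 5 scalings, with bars of 1 standard error. With total counts every value is higher, miR-7139-5p and miR-7139-3p are above 0 at 0.73 and 0.81, and miR-9858-5p is at −0.49. Under the other scalings miR-9858-5p and both miR-7139 arms are below 0 and miR-7134-3p is above.

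The 2 arms of miR-7134 moved apart with age. The 3p arm rose, as given above, and the 5p arm, miR-7134-5p, had a log2 difference of −0.67 from day 11 to day 56 that was not called (adjusted p = 0.191). The share of the 5p arm in the reads of both arms needs no scaling between libraries. Over the 13 pigs it was between 12.1% and 64.6% at day 11 with a median of 42.8%, between 7.95% and 57.8% at day 20 with a median of 32.7%, and between 5.05% and 33.4% at day 56 with a median of 15.0%. The ranges overlapped, and the mean was 39.7% ± 13.0 (SD, n = 13), 32.1% ± 12.4 and 15.9% ± 8.13. The change of the log2 ratio of 3p to 5p reads within each pig was tested for 3 hairpins and 3 pairs of ages with a two-sided exact permutation test of the signs, with Benjamini-Hochberg adjustment over the 9 tests. This test was chosen after the shares had been seen, and its threshold was an adjusted p under 0.05. For miR-7134, the ratio rose by 1.93 (SE 0.387) from day 11 to day 56, in 11 of 13 pigs, with exact permutation p = 0.00122 and adjusted p = 0.0110. It rose by 1.41 (SE 0.427) from day 20 to day 56, in 12 of 13 pigs, with exact permutation p = 0.00757 and adjusted p = 0.0341. This second call was lost without any one of 7 pigs (control replicates 4, 7 and 8 and topsoil replicates 2 to 5), when the adjusted p reached at most 0.0681. From day 11 to day 20 the ratio changed by 0.51 (SE 0.352, exact permutation test, adjusted p = 0.357).

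The other hairpins with both arms in the tested set kept one main arm at each age. The 5p arm of miR-7139 held between 87.0% and 99.3% of the reads of both arms in a library, and that of miR-4331 between 84.7% and 100.0% in the libraries with a read. None of their 6 arm ratio tests reached the threshold, with adjusted p of at least 0.357 in the exact permutation test. In all libraries together, the 3p arm of miR-7142 had 349613 reads and its 5p arm 2. The 5p arm held 11.8% of the reads of miR-7135, 80.3% of miR-7137 and 98.4% of miR-7144, on totals of 711, 391 and 124 reads.

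**Figure D5:**
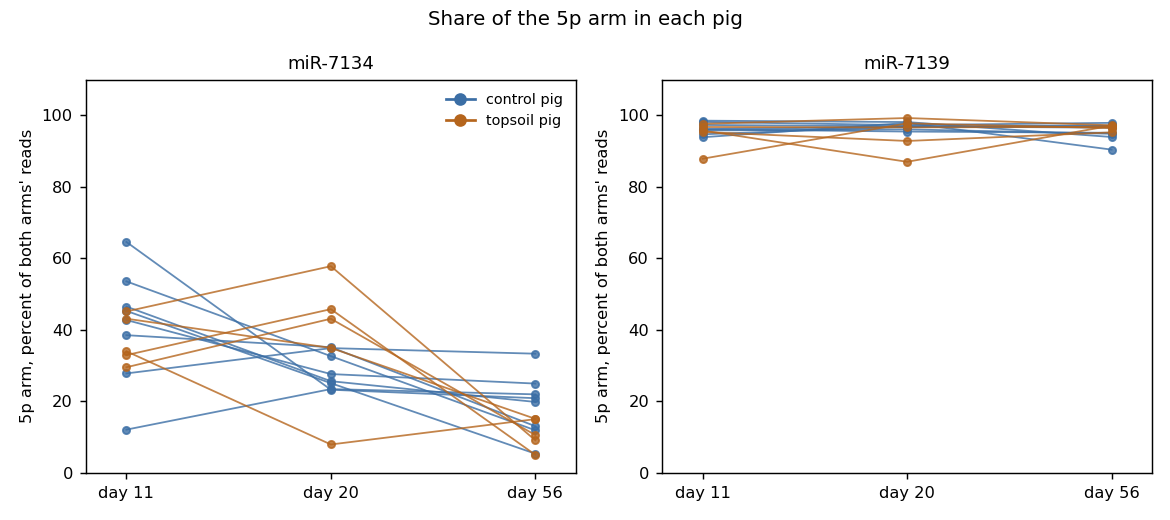
The share of the 5p arm in the reads of both arms is shown for miR-7134 and miR-7139 in each pig at days 11, 20 and 56 (percent, one line per pig, control and topsoil pigs in separate colours). The share of miR-7134 falls from a median of 42.8% at day 11 to 15.0% at day 56, while that of miR-7139 stays between 87.0% and 99.3%.

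No member differed between topsoil and control pigs past the threshold. The question of the study, whether soil in early life changes how miRNAs move with age, was addressed by the treatment by age interaction, in which the 2 terms were tested together. There, 0 of 22 members were called, beside a background of 0%. An unadjusted p under 0.05 was found for 3 members and for 22 of all 209 miRNAs, and the lowest adjusted p of a member was 0.462. In simulated counts, the interaction test called 14 of 40 miRNAs that were changed 4-fold in topsoil pigs at day 20. Changes of that size can therefore be missed. When topsoil and control pigs were compared at one age (8 against 5 libraries, edgeR's quasi-likelihood test), 0 of 22 members were called at day 11 (background 0%), 0 at day 20 (background 0.478%) and 0 at day 56 (background 0%), and 0 members had an unadjusted p under 0.05 at any of the 3 ages. The log2 differences of the members were between −1.32 and 2.12 at day 11, between −2.39 and 1.77 at day 20 and between −1.11 and 1.66 at day 56.

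The 3 members with the smallest interaction p are also the members that the study lists as differing, a list chosen on these samples and so not independent evidence. miR-4331-5p had the most reads of them. In control pigs its counts were between 12 and 140 at day 11, between 39 and 281 at day 20 and between 93 and 408 at day 56. Topsoil pigs 1 to 5 had 76, 119, 50, 100 and 130 reads at day 11, then 0, 141, 73, 17 and 90 at day 20, and 195, 247, 218, 228 and 237 at day 56. Topsoil replicates 1 and 4 were lowest at day 20, and the groups overlapped at each age. Within pigs, its scaled count was higher at day 20 than at day 11 in 8 of 8 control pigs, and it was lower in 4 of 5 topsoil pigs. The first interaction term (how much more the level moved between days 11 and 20 in topsoil than in control pigs) was −2.26 (SE 0.861) on the log2 scale, with adjusted p = 0.462 for both terms together in edgeR's quasi-likelihood test. With one pig left out it was between −2.92 (without topsoil replicate 5) and −1.31 (without topsoil replicate 1, the library at 0), and the adjusted p was between 0.216 and 0.798 over all alternatives.

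miR-7144-5p and miR-10388 rested on very few reads. miR-7144-5p had 122 reads in all, at day 11 in 1 of 8 control pigs (10 reads) and in 3 of 5 topsoil pigs (14, 2 and 4 reads). At day 20 it was read in 5 of 8 control pigs, with at most 9 reads, and in 1 topsoil pig, with 4 reads. At day 56 it was read in 6 of 8 control and 3 of 5 topsoil pigs, with up to 29 reads. Its interaction had adjusted p = 0.462 in edgeR's quasi-likelihood test. miR-10388 had 337 reads in all. In topsoil pigs 1 to 5 the counts were 0, 1, 0, 11 and 0 at day 11, then 0, 16, 0, 0 and 0 at day 20, and 17, 32, 0, 25 and 24 at day 56, while control pigs had up to 7, 46 and 30 reads at these ages. Its interaction had adjusted p = 0.462 in the same test, and the first term of −2.82 (SE 3.20) turned to 1.70 without topsoil replicate 4. A fitted difference for such counts depends on the zeros in most libraries of a group.

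Levels that belong to a pig would repeat over its 3 ages. The 11 pig terms, tested together within treatments, called 0 of 22 members, beside a background of 0%, and the smallest p of a member was that of miR-7144-5p (adjusted p = 0.360 in edgeR's quasi-likelihood test). An unadjusted p under 0.05 was found for 1 member and for 16 of the 209 miRNAs, while DESeq2 called 17 miRNAs, of which 1 was a member, miR-4334-3p, whose counts are those of miR-339.

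Sequence and position are described with no test for the miRNAs that passed the filter and were placed, 16 of 22 members and 163 of 187 lower-numbered miRNAs. The median GC content of these members was 61.0%, against 47.6%, and that of the 66 placed members without a read was 52.2%. A seed shared with a lower-numbered miRNA was found for 2 members, miR-4334-3p (miR-339) and miR-9843-3p (miR-146a-3p), which is 12.5%, while 46.6% of the lower-numbered miRNAs shared a seed with another miRNA. None of the 16 had a neighbouring miRNA within 10 kb from another hairpin, against 43.6% of the lower-numbered miRNAs, many of which belong to clusters. Of these members, 13 (81.3%) overlapped a gene, against 55.2%. Repeat-masked sequence made up most of the mature sequence of 3 members (18.8%), against 3.68%. These were miR-4331-3p, miR-7137-5p and miR-9820-5p. The sequence of miR-4331-3p had 28774 exact copies in the genome, so its 196 reads cannot be assigned to one place, while 14 of the 16 had a single copy.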

How the data were processed

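Small RNA libraries of 39 PBMC samples (13 pigs at 3 ages) were analysed. The authors trimmed reads with Trim Galore 0.4.5, checked them with FastQC 0.11.3 and quantified miRNAs with miRDeep2 (its version is not given in the sources used here) on Sscrofa11.1, and they deposited the raw counts of each mature miRNA and precursor, without normalization or filter. The mRNA counts of the series were not used. The 479 entries were reduced to 457 mature names by keeping the entry with most reads. miRDeep2 can count a read for several miRNAs of the same sequence, and PCR reads carry no molecular identifiers. The limit given for members without a read covers counting error only, while the standard errors also include variation between libraries.

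Counts were fitted in R 4.3.3 with edgeR 4.0.16 (quasi-likelihood test, upper-quartile scaling at 75%) for the 209 miRNAs that had reads in 17 or more libraries and a mean above 2 reads, with Benjamini-Hochberg adjustment over all of them at a false discovery rate of 0.10. The model had pig as a block, age, the RNA quality index (RQI) from the study's sample sheet and 2 treatment by age terms. The study treated pig as random, and here it was a fixed block. The numbers pair the libraries because each pig was bled at every age. The mean correlation of deviations from the group means was 0.0499 for 2 ages of a pig (39 pairs) and −0.000881 for different pigs (228 pairs). Treatments were compared at each age without covariates. A prior count of 2 was used for log2 scaled counts and of 0.5 for arm ratios. The code was tested on simulated counts, in which 40 of 209 miRNAs were changed 4-fold. For day 56 versus day 11, 25 of the 40 were called, with 2 unchanged miRNAs. For topsoil versus control at day 20, 24 were called, with 6 unchanged miRNAs. In the interaction, 14 were called, with 1 unchanged miRNA. Alternatives were TMM, total counts, DESeq2 1.42.0, limma 3.58.1, other filters, every entry, no RQI, no block and each pig left out. Library sizes without miR-486, leaving out the library of the smallest total count and the arm ratio test were added after the data were seen. The members and lists were chosen with earlier results of these data known.

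Members are named if they are among the 10 with the highest mean level, have an adjusted p under 0.10 in any comparison, are among the 3 with the smallest interaction p, or are in the list of the study. The other members that passed the filter are given by level, sequence or arm. RefSeq sequences were matched by the miRBase identifier of the mature miRNA, for 16 of the 22 members that passed the filter and for 30 of the 41 with a read.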

Additional observations from a re-analysis of the deposited data

Results flagged for a closer look

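Dixon's test was applied to 84 groups of 5 or 8 libraries. The values were the log2 scaled counts of single members and the share of all members in the reads other than miR-486. In 8 groups, all of single members, a library stood apart from the others, and chance alone gives about 1 in 20. miR-7134-3p was highest in control replicate 7 at day 56, at 8.13 against 6.92 in the next library (1812 reads), and this library had the smallest total count of the series. miR-9858-5p was lowest in control replicate 4 at day 11, at 3.83 against 5.84 (241 reads). miR-4331-5p was lowest in topsoil replicate 1 at day 20, at −2.51 with 0 reads, against 2.03.

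The other 5 were members with few reads. miR-7144-5p was highest in control replicate 4 at day 11 (−0.40, 10 reads), in topsoil replicate 2 at day 20 (−1.27, 4 reads) and in control replicate 6 at day 56 (1.66, 29 reads). miR-10388 was highest in topsoil replicate 4 at day 11 (0.41, 11 reads) and in topsoil replicate 2 at day 20 (0.17, 16 reads). In 3 of these groups every other library was at 0 reads. What sets these libraries apart was not tested.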

How the results depend on the processing

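With scaling by total counts, 8 members were called between day 20 and day 56 and 11 between day 11 and day 56, all higher at day 56 (of all miRNAs, 108 and 162 were called), miR-7139-5p turned to 0.44 and 0.73, miR-7139-3p turned to 0.81, and miR-9858-5p was at −0.65 and −0.49 and was no longer called. These shifts go with the median of all miRNAs, 1.79 and 2.38 with total counts. Under the other alternatives 3 to 6 members were called in each of these comparisons, beside 24 to 59 of all miRNAs from day 20 and 41 to 77 from day 11, and 0 members were called in the interaction, between day 11 and day 20 and between treatments at each age. DESeq2 called 1 member in the differences between pigs. The pig numbers pair the libraries, and without the replicate block 6 members were called between day 20 and day 56 (48 of all miRNAs), 5 between day 11 and day 56 (67 of all miRNAs), 0 between day 11 and day 20 and 0 in the interaction. Of all 209 miRNAs, DESeq2 called 59 between day 20 and day 56, in place of 34, and 17 in the differences between pigs, in place of 0. limma called 2 in the interaction, in place of 0, none of them a member.

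With each pig left out in turn, 3 to 4 members were called between day 20 and day 56 and 3 to 5 between day 11 and day 56, 21 to 23 members passed the filter, and the median percentile of members was between 29.7 and 31.6. The first interaction term of miR-10388 was between −6.77 and 1.70, the latter without topsoil replicate 4. Over the miRNAs that passed the filter, the median percentile of members was 36.4, against 51.9 for lower-numbered miRNAs, because fewer miRNAs enter. Depth limits the precision of the members with few reads, and 11 of the 22 tested had a mean under 100 reads.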
